A study of Gallus gallus with 9 samples.

Results

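In chicken liver, 152 of 11512 tested protein-coding genes were lower at 42 weeks than at embryonic day 13 by at least 1.5 log2 units of mean level without either step, to 5 weeks or from 5 to 42 weeks, reaching a 2-fold change on the deposited scale. RNA was sequenced from whole liver at embryonic day 13, at 5 weeks of age (a stage the submitters call rapid growth) and at 42 weeks of age (called adult and aged), with 3 libraries per age that are described as biological replicates. The labels name no treatment, mutant, breed, sex, flock, pooling or batch, so effects of sex or batch and of age cannot be told apart. Levels were given as FPKM, a count of fragments set against transcript length and library size, on a log2(FPKM + 1) scale, and all log2 differences below are on that scale. Depth is unknown, and the spread among the 3 libraries of each age serves as the error.

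The members were chosen on these same libraries. To be tested, a gene needed 1 FPKM or more in 3 or more of the 9 libraries, and its log2 values were averaged within each age. A member differed by less than 1 between embryonic day 13 and 5 weeks, by less than 1 between 5 and 42 weeks, and was lower by at least 1.5 at 42 weeks than at embryonic day 13. By arithmetic, both steps of every member then lie between -1 and -0.5. All differences between ages are therefore a description of the choice. Counts of members called by limma, given further below, describe the choice too, and none of them serves as a test of the members.

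The liver makes most plasma proteins and lipoproteins in birds and is the main site of fatty acid synthesis. In the embryo it grows by cell division while its supply of nutrients comes from the yolk. After hatching it handles a carbohydrate-rich feed, and in laying hens it also makes the yolk proteins. The deposited identifiers are not paired with gene names, and the gene table at hand held no identifiers of their kind. For that reason 0 of the 13949 listed identifiers could be matched. Roles, chromosomes, sequences and marker genes of the members or of liver cell types were therefore not analysed here. Genes are given by identifier or by their rank in abundance among the 152. Since whole tissue was sequenced, fewer cells of a type and less RNA per cell cannot be told apart.

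ENSGALG00000003197 was the most abundant member at embryonic day 13. Its libraries held 1201, 1158 and 873 FPKM at embryonic day 13, 600.2, 518 and 599 FPKM at 5 weeks, and 449, 314 and 364 FPKM at 42 weeks. Every library of an older age lay below every library of a younger one. The log2 difference was -0.90 for the first step, -0.62 for the second and -1.52 for the whole interval. The mean was 1077 ± 178, 573 ± 47.0 and 376 ± 68.0 FPKM at the 3 ages (SD, n = 3 each).

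ENSGALG00000027688 had the largest fall among members with at least 10 FPKM at embryonic day 13. It held 83.7, 79.1 and 70.8 FPKM at embryonic day 13, 36.6, 51.3 and 31.1 FPKM at 5 weeks, and 17.2, 21.3 and 19.7 FPKM at 42 weeks. The ages again did not overlap, although the second 5-week library stood above the other two of its age. Its 2 steps were nearly equal, at -0.98 and -0.97, and added up to -1.95. Both values are close to the limit of -1 that the rule sets on a step.

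**Figure D1:**
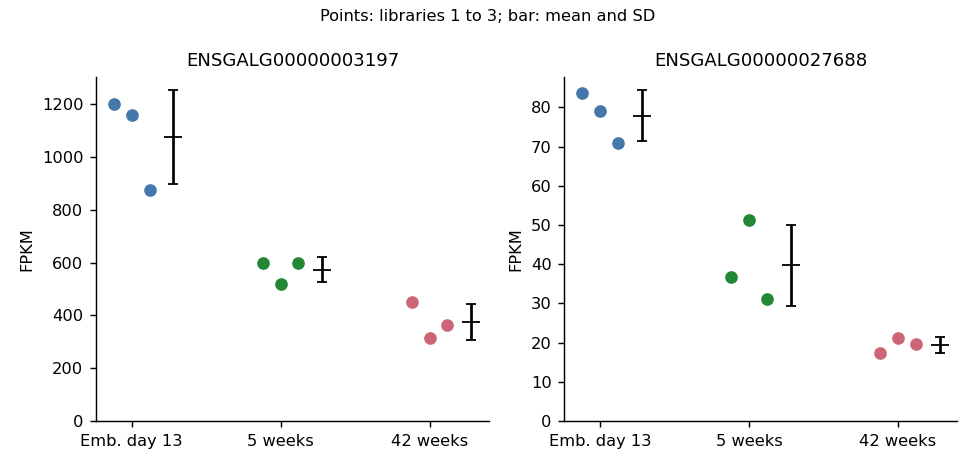
FPKM of the 2 named genes at the 3 ages, with each library as a point and the mean and SD (n = 3) as a bar beside the points. For both genes the points of each later age lie below all points of the age before it.

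Most of the other abundant members were ordered in the same way. The member ranked 2 by abundance held 585, 537 and 552 FPKM at embryonic day 13, 301, 280.4 and 357 FPKM at 5 weeks, and 148, 175 and 213 FPKM at 42 weeks. The member ranked 5 held 393, 421 and 454 FPKM at embryonic day 13, 223, 194 and 236 FPKM at 5 weeks, and 94.4, 106 and 132 FPKM at 42 weeks. Its fall of -1.93 was among the 5 largest of all members. The member ranked 4 held 511, 469 and 442 FPKM, then 264, 227 and 263 FPKM, and at 42 weeks 133, 123 and 247 FPKM. Here the third 42-week library lay within the range of the 5-week libraries. The member ranked 6 was similar, with 105.5, 110.1 and 189.5 FPKM at 42 weeks and 169, 303 and 236 FPKM at 5 weeks. The other 8 of the 10 most abundant members kept all 3 ages in order without overlap. Such order was found in 82.9% of all members and 12.9% of tested genes, and for members it follows in part from the choice. The 10 most abundant members together held 44.2% of the summed FPKM of the members at embryonic day 13.

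The members as a group were well expressed at embryonic day 13. Their median FPKM was 24.0 at embryonic day 13 (interquartile range 12.4 to 59.9), 13.2 at 5 weeks (7.12 to 32.8) and 7.18 at 42 weeks (3.42 to 18.4). For all tested genes the medians were 8.42, 5.78 and 5.25 FPKM. The difference in level at embryonic day 13 is partly set by the rule, since a gene must have at least 1.83 FPKM to be able to fall by 1.5 on this scale. The lowest member had a mean of 2.17 FPKM there. Members made up 0.521% of tested genes under 10 FPKM at embryonic day 13 (33 of 6337), 2.00% of those with 10 to 100 FPKM (92 of 4593) and 4.64% of those with at least 100 FPKM (27 of 582). With 1 FPKM added before the logarithm, low genes need a larger relative fall to reach 1.5. Members under 10 FPKM kept a median of 22.0% of their embryonic level at 42 weeks, and those with at least 100 FPKM 32.7%. Their median whole-interval differences were -1.64 and -1.62. How far this shapes the percentages by level was not tested.

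The members' share of the summed FPKM was 1.89% ± 0.04 at embryonic day 13, 1.08% ± 0.03 at 5 weeks and, lowest, 0.754% ± 0.053 at 42 weeks (SD over 3 libraries of an age). By library the share was 1.94%, 1.87% and 1.87% at embryonic day 13, 1.05%, 1.11% and 1.09% at 5 weeks, and 0.714%, 0.734% and 0.815% at 42 weeks. The ages did not overlap in this share, which follows from how the genes were chosen.

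**Figure D2:**
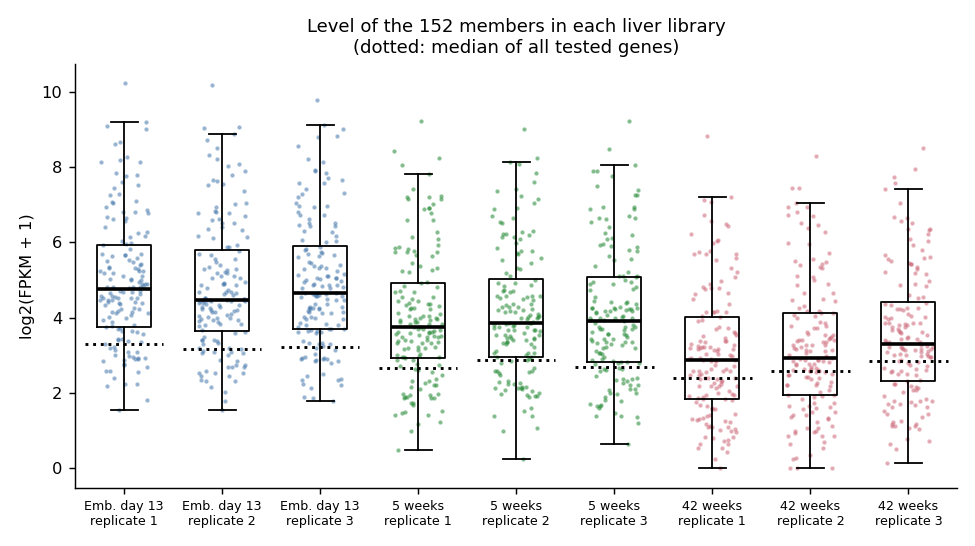
Level of the 152 members in each of the 9 libraries as log2(FPKM + 1), with points for genes and boxes for median and quartiles (whiskers reach 1.5 times the interquartile range). The dotted line is the median of all 11512 tested genes, which the members' median exceeds by 1.41 at embryonic day 13, 1.10 at 5 weeks and then 0.42 at 42 weeks.

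The 2 steps were of similar size on the deposited scale. The first step had a median of -0.86 (range -0.997 to -0.50), the second -0.82 (from just short of -1 to -0.52) and the whole interval -1.62 (-1.95 to -1.501). The first step was the larger one in 82 members and the second in 70, and in 42 members they differed by at most 0.1. The first step held a median of 50.9% of the whole difference, with a range of 33.5% to 65.5%. Over all tested genes the median differences were -0.46, -0.17 and -0.61, so the tested genes as a whole moved more over the first step than over the second. Relative to those medians, the members' median lay at -0.40 at the first step, -0.66 at the second and -1.01 over the whole interval.

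**Figure D3:**
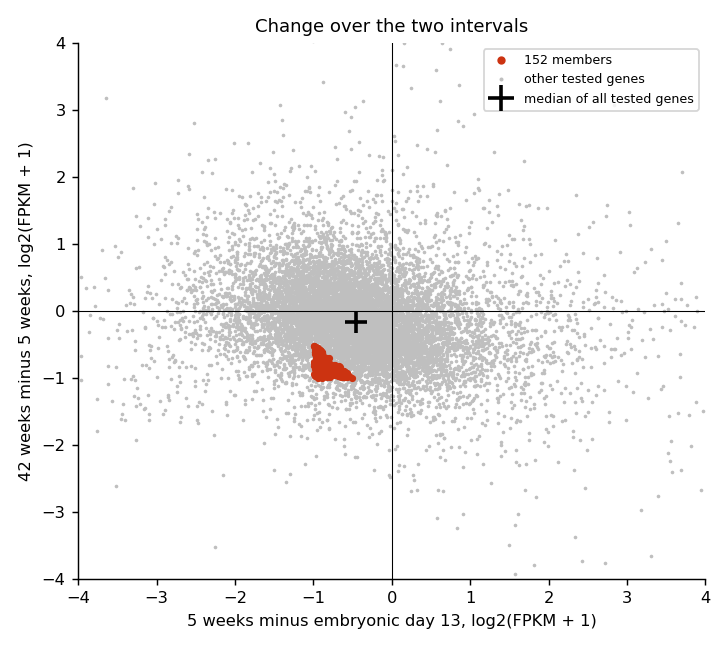
Log2 difference of the first interval (5 weeks minus embryonic day 13) against that of the second (42 weeks minus 5 weeks) for each tested gene, with members in red and the median of all tested genes as a cross at -0.46 and -0.17. The members fill a small triangle fixed by the rule, and 94 of 152 have at least 1 step of -0.9 or lower; 126 tested genes lie outside the axes.

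The edges of the group were densely filled. The member closest to the limit on the whole interval had a difference of -1.501, and the nearest gene outside it had -1.4999 with steps of -0.92 and -0.58. Within 0.1 of that limit lay 67 members inside and 84 genes outside. A further 66 genes were left out because their first step lay between -1.1 and -1, and 36 because their second step did. The member nearest the limit on the whole interval had means of 18.6, 9.64 and 6.005 FPKM at the 3 ages, and its neighbour outside had 4.77, 2.06 and 1.04 FPKM, so nearly equal log2 differences went with different levels. At the limits on a step, the nearest member had -0.997 and the nearest gene outside -1.001 for the first step, and the nearest gene outside had -1.003 for the second.

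Whether a step counts as small depends on the 1 FPKM added before the logarithm. In FPKM itself the median member kept 53.2% of its embryonic level at 5 weeks, 52.7% of its 5-week level at 42 weeks, and 29.6% of its embryonic level at 42 weeks. At least 1 step was a 2-fold fall or more in mean FPKM for 72 of the 152. These were 31 of the 33 members under 10 FPKM at embryonic day 13, 41 of the 92 with 10 to 100 FPKM and 0 of the 27 with at least 100 FPKM. The least abundant member, ranked 152, had 1.94, 1.91 and 2.65 FPKM at embryonic day 13 and 0.402, 0.200 and 2.13 FPKM at 5 weeks. At 42 weeks it was listed at 0 in 2 libraries and at 0.114 FPKM in the third. In all 149 members were above 0 in every library, and 133 had at least 1 FPKM in every library.

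The rule used age means, and the spread between libraries shows how cleanly the ages separated. Within an age, the median member had an SD of 0.16 log2 units at embryonic day 13, 0.19 at 5 weeks and then 0.28 at 42 weeks, against 0.15, 0.19 and 0.29 for all tested genes. The libraries did not overlap between 42 weeks and embryonic day 13 in any of the 152 members, against 57.2% of tested genes that were lower without overlap. At the first step 147 of 152 members lay lower at 5 weeks without overlap, where 55.2% of tested genes did. At the second step 129 of 152 lay lower at 42 weeks without overlap, where 27.9% of tested genes did. All 3 ages were in strict order in 126 members (82.9%), against 12.9% of tested genes. These counts rest on the differences that chose the members, and nothing is read from their excess over the background. After scaling each library to the same median 80 members were in strict order, against 5.99% of tested genes, and 77 of these were among the 126. After quantile normalization 93 were, against 7.35% of tested genes, and 90 of these were among the 126.

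The steadiest and the least steady members give the range. The member ranked 86 by abundance held 22.1, 19.1 and 22.6 FPKM at embryonic day 13, 10.2, 10.1 and 10.6 FPKM at 5 weeks, and 6.55, 6.66 and 7.23 FPKM at 42 weeks. Its pooled SD within ages was 0.084 log2 units, the lowest of all members, where the median was 0.23. The member ranked 58 had the highest, at 1.00. It held 28.6, 21.3 and 47.8 FPKM at embryonic day 13, 15.5, 13.5 and 17.4 FPKM at 5 weeks, and 1.502, 18.2 and 15.0 FPKM at 42 weeks. Its first 42-week library lay far below the other two, which overlapped the 5-week libraries.

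Among the 42-week libraries the third differed most from its fellows, and it touched the second step. The members' median difference from the embryonic mean was -1.83, -1.74 and -1.39 in the 3 libraries of that age. The third library was the highest of the 3 in 121 of 152 members, with a median deviation of 0.26 from the age mean, and over all tested genes its median deviation was 0.23. Of the 26 members whose ages overlapped at some step, 21 did so at the second step alone, 3 at the first step alone and 2 at both. Tested genes as a whole were likewise lower without overlap less often at the second step (27.9%) than at the first (55.2%). In 20 members the third library was the only 42-week library above a 5-week one. Without it, 149 members lay lower at 42 weeks than at 5 weeks without overlap, against 47.8% of tested genes. In strict order were 145 members, against 22.9% of tested genes. Leaving out a library can only keep or raise such counts. The gap between members and all tested genes did not set this library apart, at 0.47, 0.34 and 0.45 log2 units in the 3 libraries of that age.

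The order of genes within a library does not depend on a shift of the whole library. The median member stood at percentile 78.0 of the tested genes at embryonic day 13, 71.7 at 5 weeks and then 58.8 at 42 weeks. By library the median percentile was 78.8, 76.8 and 78.7 at embryonic day 13, 71.7, 71.0 and 73.7 at 5 weeks, and 60.9, 57.8 and 60.3 at 42 weeks. The ages did not overlap, and the third 42-week library lay between the other two. All 152 members lost rank at both steps, as did 23.2% of tested genes, and the drop in the median was larger at the second step than at the first. The ranks come from the same values that chose the members. Nothing is therefore read from this count, from the order of the ages or from the size of the drops.

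**Figure D4:**
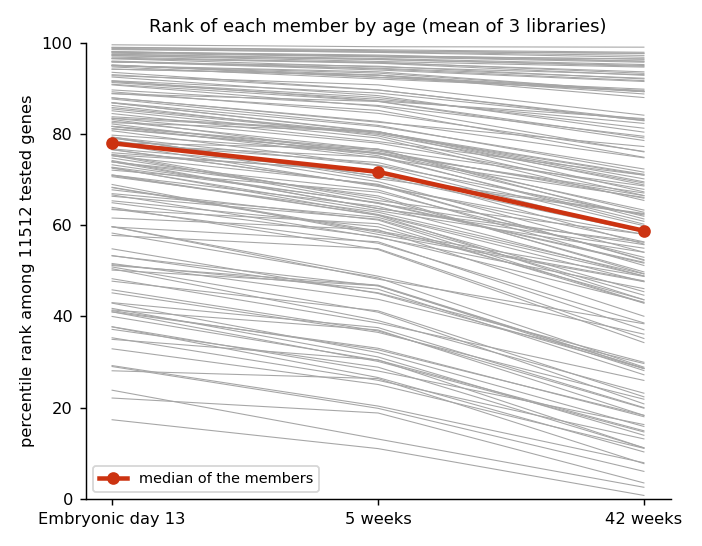
Percentile rank of each member among the 11512 tested genes at the 3 ages, each the mean of 3 libraries (grey), with the median of the members in red. The median falls by more between 5 weeks (71.7) and 42 weeks (58.8) than between embryonic day 13 (78.0) and 5 weeks. The ranks come from the same values that chose the members.

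The size of the fall, and with it the choice of members, depended on scaling. After median scaling the median of the 152 members was -0.39 for the first step, -0.69 for the second and -1.02 for the whole interval. After quantile normalization the values were -0.44, -0.66 and -1.05. All 152 members were lower at both steps under each scaling. The same held for 41.8% of tested genes on the deposited scale, 20.9% after median scaling and 23.9% after quantile normalization. The rule fixed this outcome on the deposited scale. Median scaling could not undo it. It moved every member by the same amount at a given step, and that amount was smaller than the fall of 0.5 that the rule requires at each step. The member with the smallest first step went from -0.50 to -0.03, and the one with the smallest second step from -0.52 to -0.39. Nothing is read from the excess over the background. None of the 152 reached -1.5 after either scaling, so 0 of them met the rule. The lowest whole-interval difference was -1.35 and -1.39 under the 2 scalings, against -1.95 as deposited. For median scaling the 0 was fixed in advance. It moves all members up by the same amount, and the limits on the 2 steps bound how far a member can fall. The second step was the larger one in 70 members as deposited, in 143 after median scaling and in 120 after quantile normalization. Applied anew, the rule chose 42 and 48 genes under the 2 scalings. None of these could be among the 152, as 0 of the 152 met the rule.

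**Figure D5:**
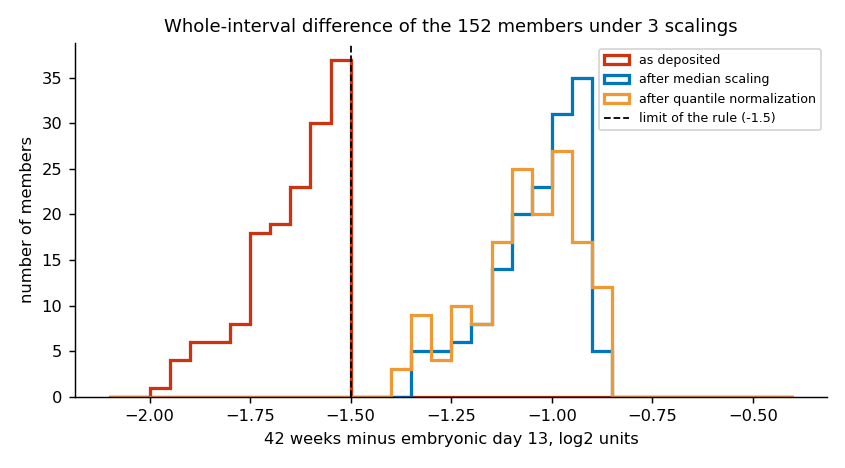
Histogram of the whole-interval log2 difference (42 weeks minus embryonic day 13) of the 152 members on the deposited scale and after each of the other 2 scalings, in bins of 0.05. All members lie at or below the dashed limit of -1.5 as deposited and above it after either scaling. Median scaling moves all members up by the same amount, and the limits on the 2 steps bound how far a member can fall. Its outcome was therefore fixed in advance.

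Leaving out a library also changed which genes qualified. Without the third 42-week library 203 genes met the rule and 87 of them were members, and without the first 42-week library the numbers were 126 and 87. Leaving out any other library gave 129 to 165 genes, of which 101 to 118 were members. The median whole-interval difference of the 152 members ranged from -1.77 to -1.52 over these 9 settings. With the median of 3 libraries in place of their mean, 166 genes met the rule and 74 were members.

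Falls in small steps made up a small part of all falls over the whole interval. Of 1717 tested genes lower by at least 1.5 at 42 weeks than at embryonic day 13, 8.85% were members. In 1187 (69.1%) the first step alone reached -1, in 217 (12.6%) the second alone did, in 137 (7.98%) both did, and in 24 (1.40%) a step went the other way by 1 or more. The strict order of libraries was found in 31.4% of the genes with a first step alone and 58.1% of those with a second step alone. It was found in 91.2% of those with both, beside the 82.9% of members. The classes were set by step size in these same libraries, so these percentages follow in part from the definitions. The members were less abundant at embryonic day 13 than genes with 2 large steps (median 24.0 against 50.3 FPKM) and more abundant at 42 weeks (7.18 against 3.21 FPKM). Genes with 2 large steps must fall further by definition. The medians at embryonic day 13 and 42 weeks were 16.4 and 2.98 FPKM for genes with a first step alone. For those with a second step alone they were 33.7 and 8.88 FPKM, so the members lay between these 2 classes. The mirrored rule, with a rise of at least 1.5 in 2 steps under 1, chose 13 genes. Of these, 7 had all 3 ages in strict rising order, against 1.36% of tested genes, which likewise follows in part from the rule. After median scaling the rule chose 42 falling genes and the mirrored rule 43 rising ones, and with quantile normalization the numbers were 48 and 31. On the deposited scale they were 152 and 13.

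A threshold on single steps passes over these genes by construction. With limma and a Benjamini-Hochberg adjusted p under 0.05 together with a log2 difference of at least 1, 31.5% of tested genes were called at the first step and 11.3% at the second on the deposited scale, and 0 of 152 members could be. Over the whole interval 152 of 152 members were called lower, where 30.9% of tested genes were. After median scaling 80 members were called lower, where 12.4% of tested genes were, and after quantile normalization 95, where 14.0% were. On limma's adjusted p alone and the deposited scale, 137 members were lower at the first step, where 46.9% of tested genes were, and 133 at the second, where 21.9% were. At the first step 58 members were lower by that measure after median scaling, where 27.7% of tested genes were, and 73 after quantile normalization, where 30.1% were. At the second step the counts were 129, where 21.2% of tested genes were lower, and 119, where 20.8% were. The rule used these contrasts, so the counts describe the choice and are no evidence of a change.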

How the data were processed

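Liver RNA of 9 chicken libraries (3 per age) was analysed from the deposited mRNA table. The submitters' processing notes list HISAT, Cufflinks 2.2.1, StringTie 1.3.3 and DESeq2 but not what each was for. The genome build is not given in the sources used here. Log2 values were deposited by the authors and were read as log2(FPKM + 1): after back-transformation none falls between 0 and 0.1 FPKM, and 5041 are exactly 0. The members and lists were chosen with earlier results of these data known. None of the 23 gene lists fixed by symbol was analysed, as the gene table held no identifiers of this kind to match. The naming rule then took the member most abundant at embryonic day 13 and the one with the largest fall among those with at least 10 FPKM there; members given by rank were chosen after their values were seen.

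Age means were compared over all 9 libraries together with limma 3.58.1 in R 4.3.3 (mean-variance trend, two-sided, Benjamini-Hochberg over 11512 genes). The model was also run on simulated data with independent noise per gene. Those data held no shift of whole libraries, so the run cannot show how such shifts act on the calls. The p-values of limma set a difference between age means against the spread between libraries of the same age. Other steps used Python 3.11.15 and pandas 2.3.3. Alternatives were median scaling, quantile normalization, no filter, a mean of at least 5 FPKM, an offset of 0.1 FPKM, no trend, the compared ages alone, a replicate block and leaving out each library. The lncRNA table was not used.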

Additional observations from a re-analysis of the deposited data

How the results depend on the processing

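The number of genes meeting the rule was 42 after median scaling and 48 after quantile normalization, against 152 as deposited. The median whole-interval difference of the 152 members was -1.02 and -1.05 under these 2 scalings, against -1.62, and 80 members (77 of the original 126) were in strict order of age after median scaling, where 5.99% of tested genes were, against 126 and 12.9% as deposited. Median scaling moved the median whole-interval difference of all tested genes to -0.0039 and quantile normalization to -0.065, against -0.61. Median scaling raised the whole-interval difference of every gene by the same amount, so the members' change from -1.62 to -1.02 is that amount. For quantile normalization, what part of the change each of its features makes was not tested. An offset of 0.1 FPKM gave 168 genes, 74 of them members. A stricter filter gave 126, all of them members, and no filter the same 152. Both filter outcomes were largely fixed in advance. A filter only removes genes, and the rule itself needs at least 1.83 FPKM at embryonic day 13. Leaving out each library gave 126 to 203 genes and a median difference of -1.77 to -1.52. Members in strict order numbered 126 to 145, but leaving out a library can only keep or raise that count. The 145 came without the third 42-week library, where 22.9% of tested genes were in strict order, against 12.9% with all libraries. For limma over all genes, the stricter filter gave 2287 calls among 6879 tested genes at the first step, against 3624 among 11512. The offset of 0.1 FPKM gave 2052 calls at the second step, against 1303 (the cause was not tested). Of the calls, the percentage lower was 77.3% on the deposited scale, 45.9% with median scaling and 52.5% with quantile normalization at the first step, 61.9%, 46.8% and 44.9% at the second, and 81.8%, 47.2% and 53.1% over the whole interval. Falls called at the second step numbered 604 without the first 42-week library, 725 without the second and 1305 without the third, against 806 with all libraries. The percentage of calls that were lower was 49.9%, 61.3% and 72.6% in these 3 settings, against 61.9%. With the replicate block the calls were 3633, 1314 and 4366, against 3624, 1303 and 4352 without it. Deviations of same-numbered libraries correlated at -0.050 to 0.14 across genes, and those of differently numbered libraries at -0.13 to 0.081. The numbers were not read as pairs. Depth is unknown, so a listed 0 means under 0.1 FPKM and not absence.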
